A study of Homo sapiens with 16 samples.

Results

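BRD9 KO was compared with LacZ on day 5, the last day of a time course in G401, a kidney rhabdoid tumor line in which SMARCB1 is mutated. The members were chosen by sample label: the 2 libraries labelled BRD9 KO on day 5 and the 2 labelled LacZ on day 5, 4 of the 16 libraries of days 1, 2, 3 and 5. Both arms carried stably expressed Cas9, delivered by lentivirus with blasticidin selection, and a second lentivirus with a single guide RNA and puromycin selection. In the BRD9 KO arm the guide was directed against BRD9, and in the LacZ arm against a bacterial gene that human cells lack. The cells were pools and not clones, so uncut or in-frame copies of BRD9 could remain, and the day from which the count starts is not given in the sources used here. The study calls the 2 libraries of a group biological replicates without stating whether they came from separate cultures, so p-values measure the spread between these libraries, which may be technical. Of 57820 genes in the files, 15027 had enough counts to be tested.

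BRD9 carries a bromodomain, a module that binds acetylated lysines, and belongs to a form of the SWI/SNF chromatin remodelling complex that lacks the SMARCB1 subunit. SWI/SNF complexes use ATP to move nucleosomes and so open or close DNA to transcription factors. Rhabdoid tumors lose SMARCB1, and the remaining complexes, including the one with BRD9, continue to act in these cells.

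Values are CPM, counts scaled to the same library total, after TMM scaling, which also corrects for composition. Differences are log2 fold changes of BRD9 KO over LacZ with their standard errors (SE). A gene was called when the adjusted p (edgeR's quasi-likelihood test with Benjamini-Hochberg adjustment over the 15027 genes) was under 0.05, and all adjusted p-values below come from that test. The day 5 libraries held 10922066 and 16361785 counts in BRD9 KO and 13446202 and 11252814 counts in LacZ, against 9185808 to 16560669 over the whole series. In genes with many counts the 2 libraries of a group differed by 1.13 times counting noise in BRD9 KO and by 1.05 times in LacZ, so small differences in such genes could pass the test. The 4 libraries matched a rhabdoid line in that SMARCB1 had 0 counts in each. VIM (vimentin) stood at 1805 and 1798 CPM of the library total in BRD9 KO and 1876 and 1882 in LacZ. Of the epithelial markers, EPCAM and CDH1 stayed under 0.25 CPM. CLDN4 stood at 3.39 and 4.77 CPM in BRD9 KO and 5.88 and 6.49 in LacZ, and KRT8 and KRT18, described later, were abundant. Of the defining markers of other cells, PTPRC, CD3E and HBB (blood), CDH5 and KDR (endothelium) and DCN and LUM (fibroblasts) were at 0 in all 4, and the endothelial VWF stood at 1.74 and 2.02 CPM in BRD9 KO and 2.75 and 2.4 in LacZ. COL1A2, COL3A1, PDGFRB and THY1, which fibroblasts share with other mesenchymal cells, ran from 29.8 to 508 CPM in BRD9 KO and from 20.7 to 590.1 in LacZ. In bulk RNA fewer cells of a type and less RNA per cell cannot be told apart.

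BRD9 itself (ENSG00000028310.13, chromosome 5, 850406 to 892916 on GRCh37, minus strand) had 25.9 and 22.5 CPM in the BRD9 KO libraries, against 62.4 and 60.6 CPM in the LacZ libraries. Both knockout libraries lay far below both controls and still held BRD9 RNA. The log2 fold change was -1.36 (SE 0.067, adjusted p = 5.5e-11). On day 3 it was -1.31, and the change between the days (-0.06, SE 0.097, adjusted p = 0.924) did not pass the test. The RNA level does not measure BRD9 protein, since an edited transcript can still be counted.

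On day 5, 2250 of the 15027 genes were called (15%), 1131 higher (7.53%) and 1119 lower (7.45%) in BRD9 KO. Most changes were small: the median size over the called genes was 0.25 on the log2 scale, and the median of all genes tested was -0.000782. Calls followed the number of counts. Among genes whose mean log2 CPM was 7 or more, 674 of 1694 were called (39.8%) and 3 of them by 2-fold or more. Among genes below a mean log2 CPM of 1, 70 of 2598 were called (2.69%), and all 70 had an estimated change of at least 2-fold. At that depth a smaller change was not detectable. The call count was 1464 without the library LacZ day 5 replicate 1, and 1568 to 1637 with any other of the day 5 libraries left out.

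**Figure D1:**
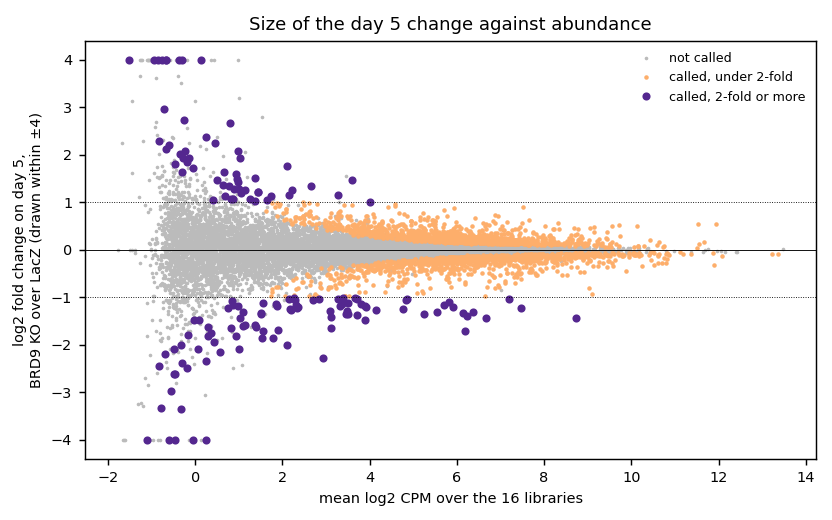
Each point is a gene tested, with its mean log2 CPM over the 16 libraries on the x axis and the log2 fold change on day 5 (BRD9 KO over LacZ) on the y axis. Grey points were not called, orange points were called with less than a 2-fold change and purple points were called with 2-fold or more; 49 genes beyond 4 on the log2 scale are drawn at the edge, 14 of them called. The 2-fold changes of genes with many counts lie on the lower side.

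Changes of 2-fold or more were called for 152 genes (1.01%), 56 higher (0.373%) and 96 lower (0.639%). In all 152 both BRD9 KO libraries lay beyond both LacZ libraries, as they did in 54.6% of all genes tested. Of the 152, 99 are annotated as protein-coding, 31 as long non-coding RNA and 12 as pseudogenes, and 10 had no match in the annotation. Counts were few for many of them: 82 reached a mean log2 CPM of 1, of which 64 were lower and 18 higher. In 12 of the 152 both libraries of a group had 0 counts, BRD9 KO in 5 and LacZ in 7. Tested against a change of 2-fold and not against no change (edgeR's glmTreat), 9 genes passed, all of them lower: BRD9, PSG9, PSG1, PSG5, NUPR1, HPD, RGS5, GSG1 and the long non-coding RNA CTD-2339F6.1. GSG1, RGS5, CP and PSG3 are named here after their values were seen.

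The pregnancy-specific glycoproteins fell as a family, on day 5 and already on day 3 (10 of 10 called lower, median log2 fold change -1.14). They are secreted proteins of the immunoglobulin superfamily, known from the placenta, encoded side by side on chromosome 19. All 10 members tested fell (median log2 fold change -1.42), 9 of them by 2-fold or more, and all 10 calls held with any 1 day 5 library left out. PSG9 (chromosome 19, 43715943 to 43773682) had 194 and 192 CPM in BRD9 KO, against 519.8 and 529 CPM in LacZ (-1.44, SE 0.022, adjusted p = 2.38e-18). PSG1 had 23.3 and 23.1 CPM in BRD9 KO, against 75.8 and 76.3 CPM in LacZ (-1.71, SE 0.054, adjusted p = 1.01e-13). PSG4 changed least, with 176 and 181 CPM in BRD9 KO, against 228 and 238 CPM in LacZ (-0.38, SE 0.033, adjusted p = 1.22e-07). The groups overlapped in none of the 3. Between the days the level of PSG9 differed mainly in the control: it averaged 193 CPM on day 5 and 188 CPM on day 3 in BRD9 KO, against 524 CPM on day 5 and 399 CPM on day 3 in LacZ. Its fold change differed between the days by -0.35 (SE 0.032, adjusted p = 9.38e-06). The copies are near-identical, so reads can be split between them and single members are uncertain.

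The similarity of the copies reaches into their upstream sequence. The 250 bases before the annotated start (RefSeq, GRCh38.p14, minus strand, printed 5′ to 3′ along the gene) are shown for PSG5 (chr19:43186537-43186786), which fell by 2-fold or more, PSG3 (chr19:42740482-42740731), which did so too, and PSG4 (chr19:43205639-43205888), which fell less. PSG5 had 51.0 and 55.7 CPM in BRD9 KO, against 143 and 148 CPM in LacZ (-1.44). PSG3 had 5.27 and 5.78 CPM in BRD9 KO, against 12.7 and 12.0 CPM in LacZ (-1.15). Capitals mark the letters CCCCNCCC, the form of a GC-rich box that zinc-finger factors of the KLF and SP families bind.
PSG5: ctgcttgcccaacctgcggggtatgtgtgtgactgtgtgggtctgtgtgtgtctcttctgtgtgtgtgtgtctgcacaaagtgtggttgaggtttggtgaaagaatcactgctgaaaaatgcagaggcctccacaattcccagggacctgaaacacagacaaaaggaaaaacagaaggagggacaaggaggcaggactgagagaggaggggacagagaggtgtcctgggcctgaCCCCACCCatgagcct
PSG3: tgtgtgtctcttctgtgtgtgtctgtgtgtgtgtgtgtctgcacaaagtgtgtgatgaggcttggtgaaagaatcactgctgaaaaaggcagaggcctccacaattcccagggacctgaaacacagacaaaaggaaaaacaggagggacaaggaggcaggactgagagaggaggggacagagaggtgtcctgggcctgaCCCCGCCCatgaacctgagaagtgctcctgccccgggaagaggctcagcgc
PSG4: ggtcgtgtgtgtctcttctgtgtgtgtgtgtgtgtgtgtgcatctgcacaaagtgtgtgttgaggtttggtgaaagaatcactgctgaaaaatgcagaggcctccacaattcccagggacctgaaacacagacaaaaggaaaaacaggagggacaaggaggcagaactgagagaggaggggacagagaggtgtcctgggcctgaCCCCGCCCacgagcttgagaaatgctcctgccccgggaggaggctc
PSG5 and PSG3 were identical at 96.3% of 214 aligned bases, PSG5 and PSG4 at 95% of 219, and PSG3 and PSG4 at 95.1% of 245. The box begins 16 bases before the annotated start in PSG5, 51 in PSG3 and 46 in PSG4. The letters were searched on both strands and occur in 50.5% of the 13703 windows of tested genes. They occur in 53.4% of the 58 windows of genes called 2-fold lower and in 75% of the 36 windows of genes called 2-fold higher. A gene can have several windows or none: the 58 windows cover 41 of 96 lower genes and the 36 cover 26 of 56 higher genes. A match is therefore only a description. KLF6, a zinc-finger factor of that family first isolated through its binding to the PSG5 promoter, had 139 and 138 CPM in BRD9 KO, against 93.9 and 94.1 CPM in LacZ (0.56, SE 0.037, adjusted p = 3.04e-09). It rose, while the family fell.

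Outside that family, genes of varied function fell by 2-fold or more. NUPR1, a small stress-induced nuclear protein, had 37.8 and 36.9 CPM in BRD9 KO, against 100.2 and 96.5 CPM in LacZ (-1.40, SE 0.053, adjusted p = 1.08e-12). HPD, an enzyme of tyrosine breakdown, had 32.4 and 33.3 CPM in BRD9 KO, against 81.6 and 81.2 CPM in LacZ (-1.31, SE 0.044, adjusted p = 2.41e-13). In both genes the 2 libraries of a group lay within a few CPM of each other. FGFBP3, a secreted carrier of fibroblast growth factors, had 64.6 and 65.4 CPM in BRD9 KO, against 132 and 134 CPM in LacZ (-1.03, SE 0.035, adjusted p = 2.76e-13). RGS5, which shortens signalling through G proteins, had 29.2 and 31 CPM in BRD9 KO, against 75.7 and 77.1 CPM in LacZ (-1.34). CP, the copper-carrying plasma protein ceruloplasmin, had 22.8 and 24.0 CPM in BRD9 KO, against 51.7 and 54.1 CPM in LacZ (-1.17). The knockout libraries were below the controls in each of the 3, with no overlap. GSG1 (-1.32) and CTD-2339F6.1 (-1.23) fell to a like extent.

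The lower genes with the largest fold changes had few counts. CCL25, a chemokine of the gut and thymus, had 1.36 and 1.46 CPM in BRD9 KO, against 6.1 and 5.34 CPM in LacZ (-2.01, SE 0.24, adjusted p = 6.68e-06). Also lower by 2-fold or more were PRSS33, a serine protease (-1.87), TTC30A, a component of intraflagellar transport (-1.69), ANKRD2, an ankyrin-repeat protein known from muscle (-1.59), CDC20B (-1.48) and TNNT2, the cardiac form of troponin T (-1.09). For CCL25, PRSS33, TTC30A, ANKRD2 and CDC20B, lack of overlap between the groups was a condition for naming them. TNNT2 did not overlap either.

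The genes that rose by 2-fold or more had lower counts than those that fell, with a median of their mean log2 CPM of 0.677 against 2.0. SPHK1, the kinase that makes sphingosine 1-phosphate, had 27.4 and 30.2 CPM in BRD9 KO, against 10.0 and 10.9 CPM in LacZ (1.47, SE 0.11, adjusted p = 1.3e-08). FSTL3, a secreted binder of activin, had 27.4 and 25.3 CPM in BRD9 KO, against 14.1 and 11.8 CPM in LacZ (1.01, SE 0.092, adjusted p = 2.34e-07). The groups were apart in both, more widely in SPHK1. BCAN, the brain matrix proteoglycan brevican, had 17.2 and 16.7 CPM in BRD9 KO, against 7.44 and 7.75 CPM in LacZ (1.15). INA, the neuronal intermediate filament alpha-internexin, had 8.18 and 8.58 CPM in BRD9 KO, against 2.31 and 2.67 CPM in LacZ (1.76). RHBDL3, a member of the rhomboid family, had 3.45 and 3.10 CPM in BRD9 KO, against 0.893 and 0.802 CPM in LacZ (1.93). These 3 have neural roles or relatives, and each knockout library was above each control, which was a condition for naming them. Further rises were those of HES2, a basic helix-loop-helix factor of the HES family (1.21), EFR3B, a plasma membrane scaffold (1.5), the long non-coding RNA LINC00263 (1.33) and NR4A3, an orphan nuclear receptor (1.59). The adjusted p of NR4A3 was 0.00546, and 0.0582 without the library LacZ day 5 replicate 1.

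**Figure D2:**
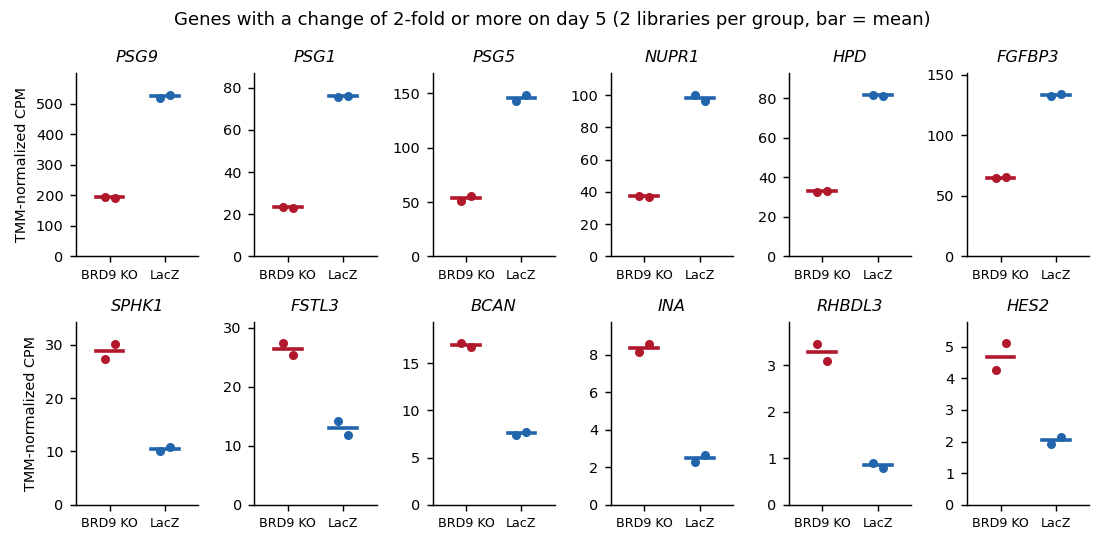
TMM-normalized CPM on day 5 of 12 genes with a change of 2-fold or more, BRD9 KO on the left and LacZ on the right of each panel. Points are the 2 libraries of a group and bars their mean, on linear axes from 0; in each panel the points of a group lie close together and apart from the other group.

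BIRC3, an inhibitor of apoptosis and a known NF-kB target, was close to absent from the controls: the libraries had 1.27 and 1.58 CPM in BRD9 KO, against 0 and 0.0891 CPM in LacZ. These are 40 counts against 1 count, a ratio of 35.9 after scaling by the library totals and TMM factors (95% exact interval 6.09 to 1450, counting error only), with an adjusted p of 0.00102. The windows upstream of the starts of SPHK1 (chr17:76385028-76385277, plus strand, 1 of its 3 annotated starts) and BIRC3 (chr11:102317234-102317483, plus strand) are shown as examples of the higher genes (RefSeq, GRCh38.p14). The SPHK1 window was picked because it holds the letters of AP-1, which the windows of its other annotated starts lack. Subunits of AP-1 are among the immediate-early genes described later. The BIRC3 window holds the letters of NF-kB. Capitals mark TGANTCA, the AP-1 form, in SPHK1, and a loose NF-kB form, which matches on the reverse strand here, in BIRC3.
SPHK1: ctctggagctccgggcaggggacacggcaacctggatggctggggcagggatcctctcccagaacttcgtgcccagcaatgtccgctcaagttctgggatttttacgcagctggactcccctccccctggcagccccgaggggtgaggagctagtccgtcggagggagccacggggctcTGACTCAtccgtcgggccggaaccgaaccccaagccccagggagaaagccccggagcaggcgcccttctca
BIRC3: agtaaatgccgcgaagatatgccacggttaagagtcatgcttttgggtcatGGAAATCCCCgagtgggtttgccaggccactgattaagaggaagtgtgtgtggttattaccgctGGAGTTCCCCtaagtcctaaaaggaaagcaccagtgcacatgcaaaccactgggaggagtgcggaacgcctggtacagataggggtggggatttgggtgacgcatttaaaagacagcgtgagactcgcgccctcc
The AP-1 letters begin 71 bases before the start in SPHK1, and the NF-kB letters 199 and 135 bases before it in BIRC3. On both strands, TGANTCA occurs in 4.30% of the windows of tested genes and in 5.56% of the 36 windows of genes called 2-fold higher. The loose NF-kB form, whose letters can overlap the GC-rich box, occurs in 68.4% of the windows of tested genes and in 80.6% of the 36. These shares are descriptions and bear on no factor.

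Absence from the day 3 changes was examined next. On day 3, 1569 genes were called (10.4%), and 1046 genes were called on both days, 46.5% of the day 5 calls and 66.7% of the day 3 calls. Of these, 1038 had the same sign on both days, and 735 had the larger change on day 5. The other 1204 day 5 calls (8.01% of genes tested) were not called on day 3, 665 of them higher and 539 lower. Most of these leaned the same way earlier: 1055 had the same sign on day 3, and 423 had an unadjusted p under 0.05 there. The same shares over all genes tested are not given here. Over all genes tested the fold changes of the 2 days had a rank correlation (Spearman) of 0.41, so some agreement in sign is shared by genes in general. Their median size was 0.24 on day 5 and 0.10 on day 3, on the log2 scale. The count of 1204 was 630 without the library LacZ day 5 replicate 1, 698 to 738 with any other day 5 library left out, and 1436 to 1542 with a day 3 library left out.

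Of the 152 genes changed by 2-fold or more, 69 were called on day 3, each with the same sign and 38 of them by 2-fold or more. The other 83 were not called on day 3 (40 higher and 43 lower). They had few counts, 22 reaching a mean log2 CPM of 1, and 62 of the 83 had the same sign on day 3. As above, the share over all genes tested is not given here. Their fold change differed between the days by test in 2 of the 83. RP11-109P14.9, named after its values were seen, had 0 and 0 counts in BRD9 KO, against 18 and 40 in LacZ. RP11-73M18.10, a transcript within KLC1 on the other strand, had 3.09 and 3.71 CPM in BRD9 KO, against 1.04 and 1.96 CPM in LacZ (1.21). The library kit does not mark strand, so its reads cannot be told apart from those of KLC1, and the call was lost without the second BRD9 KO or the first LacZ library of day 5 (adjusted p of up to 0.226). The difference of RP11-73M18.10 between the days, 1.95, was near the limit (adjusted p = 0.0464). It lost its call in limma on TPM, with a block for replicate number and with the libraries of days 3 and 5 alone. With single libraries left out it ran from 1.54 to 2.45. RHBDL3 is an example of the other 81: its log2 fold change was 1.93 on day 5 and 0.59 on day 3 (adjusted p = 0.336), and the difference between the days, 1.34 (SE 0.51), had an adjusted p of 0.357.

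The difference between the day 5 and the day 3 fold change, each day against its own LacZ libraries, was called for 143 genes (0.952%), 69 positive and 74 negative. Of these, 88 were called on both days, 42 on day 5 and not on day 3, 12 on day 3 and not on day 5 and 1 on neither. Among the 88, 78 had the same sign and a larger change on day 5. Of the 1204 genes called on day 5 and not on day 3, then, 42 had a fold change that differed between the days by test, 23 higher and 19 lower on day 5. Leaving out single libraries of days 3 and 5 gave 80 to 104 calls, the lowest count without the library LacZ day 3 replicate 1. The levels behind these differences lay more often in the knockout arm: among the 141 genes with both arms above 0 on both days, the mean CPM differed more between days 5 and 3 in BRD9 KO for 104 and in LacZ for 37. The median size of that difference between days was 0.28 in BRD9 KO and 0.12 in LacZ on the log2 scale, given as a description with no test.

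**Figure D3:**
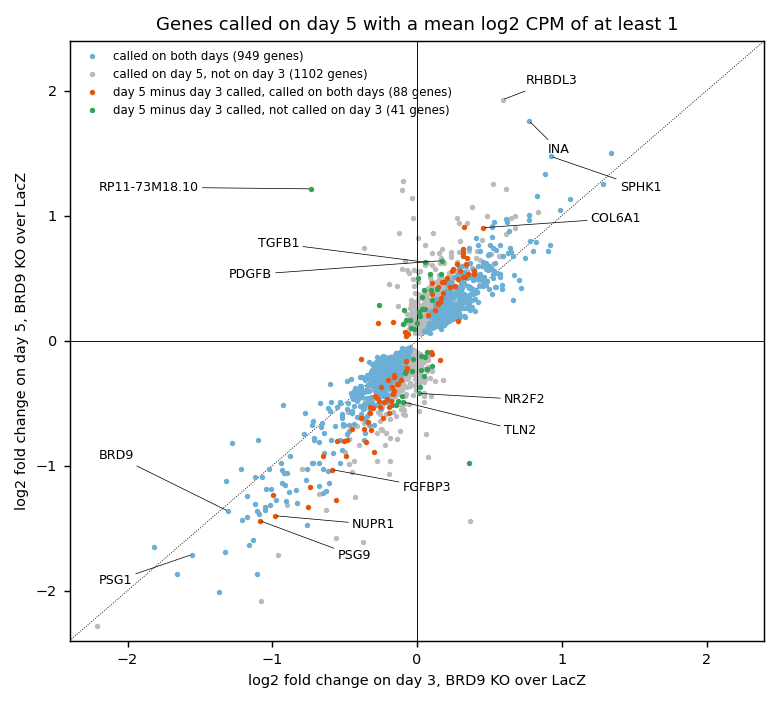
Log2 fold changes of BRD9 KO over LacZ on day 3 (x axis) and day 5 (y axis) for the 2180 genes called on day 5 whose mean log2 CPM was 1 or more. Blue points were called on both days, grey points on day 5 and not on day 3, and orange and green points are genes whose change differed between the days; most points lie in the 2 quadrants of equal sign, and the orange points lie mainly farther from 0 on day 5 than on day 3.

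Of the 23 genes called higher on day 5 and not on day 3 whose difference between the days was called, those named here had varied functions. TGFB1, the ligand transforming growth factor beta 1, had 54.9 and 52.7 CPM in BRD9 KO, against 35.3 and 33.9 CPM in LacZ (0.63, SE 0.067, adjusted p = 1.94e-06). On day 3 it averaged 28.6 CPM in BRD9 KO and 27.4 CPM in LacZ (0.05). Both arms were higher on day 5 than on day 3, the knockout more so, and the difference of the fold changes was 0.57 (SE 0.10, adjusted p = 0.00807). PDGFB, a platelet-derived growth factor chain, had 46.7 and 44.2 CPM in BRD9 KO, against 28.8 and 29.3 CPM in LacZ (0.64, SE 0.062). On day 3 it averaged 42.8 CPM in BRD9 KO and 38.0 CPM in LacZ. Here the LacZ level was lower on day 5 than on day 3, while the BRD9 KO level lay close on both days, and the difference was 0.47 (SE 0.085, adjusted p = 0.00819). The difference lost its call without replicate 1 of either BRD9 KO or LacZ on day 3 for TGFB1 (adjusted p of up to 0.0738) and without LacZ day 3 replicate 1 or LacZ day 5 replicate 1 for PDGFB (up to 0.061).

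ECM1, a secreted matrix protein, had 55.9 and 53.4 CPM in BRD9 KO, against 40.3 and 36.5 CPM in LacZ (0.50 on day 5, 0.00 on day 3). FBLIM1, an adaptor at cell-matrix contacts, had 54.2 and 54.0 CPM in BRD9 KO, against 37.5 and 37.3 CPM in LacZ (0.53 on day 5, 0.09 on day 3). CSTB, the protease inhibitor cystatin B, had 195 and 199 CPM in BRD9 KO, against 152 and 146 CPM in LacZ (0.40 on day 5, 0.10 on day 3). The groups did not overlap in the 3 genes, which was a condition for naming them. Their differences between the days (ECM1 0.49, FBLIM1 0.44 and CSTB 0.31) stayed called with each of the 8 libraries of days 3 and 5 left out. All 3 lost that call in limma on TPM (adjusted p of 0.0802, 0.80 and 0.41). DESeq2 gave no adjusted p for the differences of ECM1 and FBLIM1. The lysosomal enzyme alpha-galactosidase A (GLA, 0.54), the lysosomal pump ATP13A2 (0.41), the coagulation inhibitor TFPI (0.35), the membrane-anchored MDGA1 (0.40), the growth factor FGF2 (0.20) and the tropomyosin TPM2 (0.25) were also called higher on day 5 and not on day 3. For these 6 the difference between the days was called and lost its call with 3 to 8 of the 8 libraries left out in turn.

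Those named among the 19 genes called lower on day 5 and not on day 3 with a called difference were likewise of varied function. TLN2, a talin that links integrins to actin, had 212 and 214 CPM in BRD9 KO, against 295 and 304 CPM in LacZ (-0.49, SE 0.036, adjusted p = 1.04e-08). On day 3 it averaged 190.3 CPM in BRD9 KO and 204 CPM in LacZ (-0.09). LacZ was much higher on day 5 than on day 3, and the knockout slightly. NR2F2, the orphan nuclear receptor COUP-TFII, had 44.8 and 48.6 CPM in BRD9 KO, against 60.8 and 65.6 CPM in LacZ (-0.42, SE 0.054, adjusted p = 1.66e-05). On day 3 it averaged 65.9 CPM in BRD9 KO and 65.2 CPM in LacZ (0.01). For this gene the LacZ level lay close on both days and the BRD9 KO level was lower on day 5. SIK1, a salt-inducible kinase, had 47.0 and 47.0 CPM in BRD9 KO, against 60.4 and 61.3 CPM in LacZ (-0.37 on day 5, 0.02 on day 3). CREG1, a secreted glycoprotein, had 348 and 356 CPM in BRD9 KO, against 429.5 and 429 CPM in LacZ (-0.28 on day 5, 0.05 on day 3). The differences between the days (TLN2 -0.40, NR2F2 -0.44, SIK1 -0.40 and CREG1 -0.33) stayed called with each of the 8 libraries left out. In limma on TPM, NR2F2 and SIK1 lost that call (adjusted p of 0.80 and 0.30), and TLN2 and CREG1 kept it. Further members were CALCOCO1 (-0.52), the ganglioside enzyme ST3GAL5 (-0.48), the receptor phosphatase PTPRG (-0.44), the corepressor TLE4 (-0.24) and RP11-982M15.2 (-0.98). RP11-982M15.2 overlaps AKT1 on the other strand, and without strand in the kit its reads cannot be told apart from those of AKT1. The differences of these further members were called and lost that call with 2 to 8 of the 8 libraries left out in turn. RP11-982M15.2 also lost its day 5 call without the library LacZ day 5 replicate 1 (adjusted p = 0.0703).

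**Figure D4:**
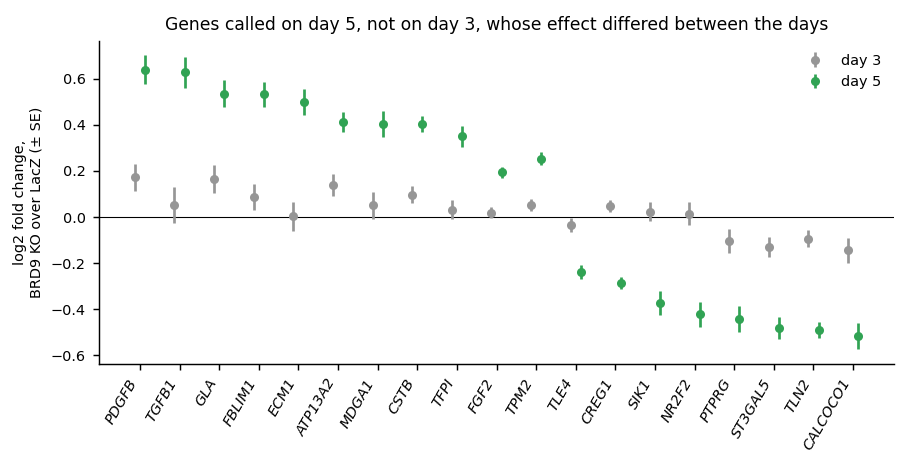
Log2 fold changes of BRD9 KO over LacZ with standard errors on day 3 (grey) and day 5 (green) for 19 genes called on day 5, not called on day 3 and called for the difference between the days. On day 3 the points run between -0.14 (CALCOCO1) and 0.17 (PDGFB), and on day 5 between -0.52 (CALCOCO1, right) and 0.64 (PDGFB, left).

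Some genes already changed on day 3 moved further. The matrix collagen COL6A1 had 313 and 295 CPM in BRD9 KO, against 165 and 159 CPM in LacZ (0.90, SE 0.034, adjusted p = 8.65e-13), with a log2 fold change of 0.46 on day 3. The small heat shock protein CRYAB had 604 and 609 CPM in BRD9 KO, against 447 and 436 CPM in LacZ (0.46 on day 5, 0.10 on day 3). PABPC1, which coats the poly(A) tail of mRNA, had 3078 and 3101 CPM in BRD9 KO, against 3843 and 3838 CPM in LacZ (-0.31 on day 5, -0.11 on day 3). The LacZ level of COL6A1 lay close on both days (162 CPM on day 5 and 161 CPM on day 3), while BRD9 KO averaged 304 CPM on day 5 and 222 CPM on day 3. F2RL2, a protease-activated receptor, had log2 fold changes of -0.80 on day 5 and -0.55 on day 3. ANGPT2, a ligand of the TIE2 receptor, was called on day 3 and not on day 5: its log2 fold change was 0.07 on day 5 (adjusted p = 0.105) and 0.42 on day 3 (adjusted p = 4.93e-09), a difference of -0.34 (adjusted p = 9.76e-05). The 8 genes called with opposite signs on the days had small changes, among them PKM (0.04 on day 5, -0.08 on day 3), PFKP (0.07, -0.08), HSPA8 (0.05, -0.07), ERRFI1 (-0.09, 0.10) and SRSF5 (-0.11, 0.10). Each of these 5 lost its day 5 call with 1 to 3 of the 4 day 5 libraries left out in turn, and each of the 4 libraries cost at least 1 of the calls (adjusted p of up to 0.150, for SRSF5).

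The 40 gene lists were read against the background of 15% called. That share rose with abundance, to 39.8% of genes with a mean log2 CPM of 7 or more, so the background is too low for lists of abundant genes. In that class stood 14 of 20 heat shock chaperones (35% of the list called) and 26 of 39 histone chaperones and replacement histones (48.7% called). Below, each list is given by its members called higher and lower of those tested, with the median log2 fold change of the members, beside -0.000782 over all genes tested. The range of a count with each of the 4 day 5 libraries left out is given where it moved by more than 1.5 times. Among lists of growth genes, those of mitosis, DNA replication and ribosomal proteins held many members that fell and at most 1 that rose. Falls in these lists were also called on day 3, with 35 of 55 lower in mitosis (median -0.192) and 27 of 51 in DNA replication (-0.146). On that day 27 of 78 ribosomal proteins were lower (-0.056). Of the members called lower on day 5, 3 in mitosis, 2 in DNA replication and 16 of the 31 ribosomal proteins were not called on day 3. In the 3 lists 0 members were called for the difference between the days. Of 55 genes of mitosis and G2/M, 29 fell and 0 rose (median -0.13; 18 to 23 lower with 1 library left out). TOP2A, the topoisomerase of mitotic chromosomes, had 440.4 and 445 CPM in BRD9 KO, against 512 and 529.9 CPM in LacZ (-0.24). KIF20A, a kinesin of cytokinesis (-0.34), and the checkpoint kinase BUB1B (-0.31) fell too. Of 51 genes of S phase and DNA replication, 12 fell and 1 rose (median -0.10; 0 higher with 1 library left out), such as TYMS, which makes thymidylate (-0.21), and the helicase subunit MCM3 (-0.18). Of 78 cytosolic ribosomal proteins, 31 fell and 0 rose (median -0.07), for example RPLP0 (-0.13) and RPS23 (-0.20). The list's share called, 39.7%, lay next to the 39.8% of all genes with a mean log2 CPM of 7 or more, where 76 of its 78 members stand. Ribosome biogenesis factors had 5 of 49 higher and 3 lower (median 0.00; 1 to 3 higher with 1 library left out). Among 15 D-type cyclins, their kinases and CDK inhibitors, 3 rose and 1 fell (median 0.03; 0 to 1 lower with 1 library left out), with CCND1 (0.22) and CDKN1A (0.19) among the higher.

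Chromatin lists moved in part. Of 25 SWI/SNF subunits, 6 fell and 1 rose (median -0.05; 3 to 5 lower with 1 library left out). Beside BRD9 the ATPase SMARCA4 fell slightly (693 and 674 CPM in BRD9 KO, against 739 and 744 CPM in LacZ, -0.12). The member that rose was GLTSCR1L, a partner of BRD9 in its complex, with 17.9 and 18.6 CPM in BRD9 KO, against 13.8 and 13 CPM in LacZ (0.45); its call was lost in DESeq2 and in limma on TPM (adjusted p of up to 0.139). Histone chaperones and replacement histones had 18 of 39 lower and 1 higher (median -0.11; 11 to 17 lower and 0 to 1 higher with 1 library left out), with HMGN2, a nucleosome-binding protein (-0.40), and the variant histone H2AFZ (-0.20) among them. Of 25 replication-dependent histones 3 rose and 0 fell (median 0.30; 1 to 3 higher with 1 library left out); these genes are near-identical copies, often without a poly(A) tail, so their counts are uncertain. Polycomb, heterochromatin and DNA methylation genes had 3 of 43 higher and 2 lower (median -0.04; 0 to 2 higher and 1 to 2 lower with 1 library left out), a share of 11.6% called, under the background.

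Stress and survival genes went in both directions. Of 30 p53 targets, 9 rose and 0 fell (median 0.07), among them PERP, a desmosomal mediator of apoptosis (0.37). Of 32 BCL2 family members, caspases and their inhibitors, 7 rose and 3 fell (median 0.08; 1 to 2 lower with 1 library left out): XIAP, an inhibitor of caspases, rose (0.49), and the survival factor BCL2 fell, with 20.1 and 20.8 CPM in BRD9 KO, against 34.2 and 33.5 CPM in LacZ (-0.73). Endoplasmic reticulum chaperones had 12 of 27 lower and 2 higher (median -0.08; 1 to 2 higher with 1 library left out), including HSPA5 (-0.14) and HSP90B1 (-0.16). Heat shock chaperones had 5 of 20 lower and 2 higher (median -0.04; 1 to 2 higher with 1 library left out), and targets of ATF4 and genes of amino acid supply 9 of 45 lower and 3 higher (median -0.03; 5 to 8 lower with 1 library left out), among the lower the serine synthesis enzymes PHGDH (-0.29) and PSAT1 (-0.24) as well as DDIT4, a brake on mTOR (-0.65). Lysosome and autophagy genes had 10 of 36 higher and 1 lower (median 0.08), such as the autophagy receptor SQSTM1 (0.32), the protease CTSB (0.34) and the glycoprotein GPNMB (0.29). In hypoxia and glycolysis 6 of 37 rose and 5 fell (median 0.03; 2 to 6 lower with 1 library left out), with the glucose transporters SLC2A3 at 0.94 and SLC2A1 at -0.44. Cholesterol and fatty acid synthesis had 8 of 33 lower and 2 higher (median -0.03; 0 to 1 higher with 1 library left out), with the fatty acid desaturases SCD (-0.20) and FADS2 (-0.36) lower. Of the 13 mitochondrially encoded mRNAs 1 fell and 0 rose (median -0.04; 1 to 3 lower with 1 library left out), 7.69% called.

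**Figure D5:**
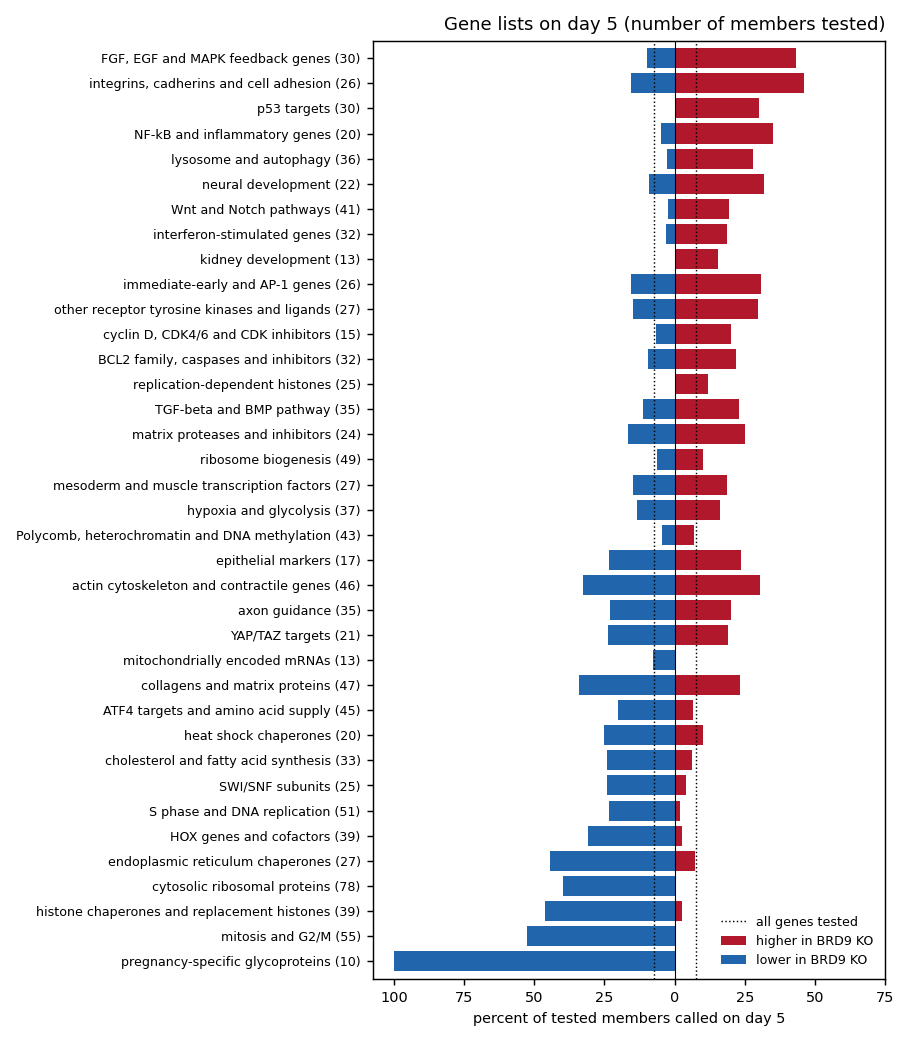
Percent of the tested members of each gene list called lower (blue, to the left of 0) and higher (red, to the right) in BRD9 KO on day 5, for the 37 lists with at least 10 members tested, with the number tested in brackets. Dotted lines are the shares over all genes tested, 7.45% lower and 7.53% higher; the lists at the bottom, from the pregnancy-specific glycoproteins upward, are mostly lower, and those at the top mostly higher.

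In each of the signalling lists except that of YAP/TAZ targets more members rose than fell on day 5. Part of this was present on day 3, when 9 of 20 NF-kB and inflammatory genes and 9 of 26 immediate-early and AP-1 genes were called higher. Of the members of these 2 lists higher on day 5, 0 and 2 were not called on day 3. The 4 lower immediate-early and AP-1 genes were not called on day 3 either. Among other receptor tyrosine kinases and ligands this held for 5 of the 8 higher. The counts below are those of day 5. Of 30 genes of FGF, EGF and MAPK feedback, 13 rose and 3 fell (median 0.14). The receptor FGFR3 had 44.8 and 43.4 CPM in BRD9 KO, against 22.7 and 22.2 CPM in LacZ (0.97). FGFR2 had 281 and 280.5 CPM in BRD9 KO, against 339 and 348 CPM in LacZ (-0.29). The receptors thus moved in opposite directions, and the feedback inhibitors SPRY4 (0.54), DUSP6 (0.42), IL17RD (0.24) and DUSP1 (0.31) rose. Among 27 other receptor tyrosine kinases and their ligands, 8 rose and 4 fell (median 0.10). The collagen receptor DDR1 (0.56) and the ligand PDGFA (0.56) rose with PDGFB, while the receptors PDGFRA (-0.67), PDGFRB (-0.23) and AXL (-0.55) fell. NF-kB and inflammatory genes had 7 of 20 higher and 1 lower (median 0.21; 0 to 1 lower with 1 library left out), with the subunits NFKB1 (0.29), NFKB2 (0.41) and RELB (0.52) and the target ICAM1 (0.38) higher. Immediate-early and AP-1 genes had 8 of 26 higher and 4 lower (median 0.16; 3 to 8 higher and 2 to 3 lower with 1 library left out), EGR1 at 0.54. YAP/TAZ targets had 4 of 21 higher and 5 lower (median 0.02; 2 to 3 higher with 1 library left out), and interferon-stimulated genes 6 of 32 higher and 1 lower (median 0.08; 1 to 2 lower with 1 library left out), with the RNA sensor DDX58 (0.68) and the peptide transporter TAP1 (0.30). The TGF-beta and BMP pathway had 8 of 35 higher and 4 lower (median 0.10; 5 to 8 higher and 1 to 5 lower with 1 library left out), among the lower LTBP2 (-0.35), of a family known from binding to microfibrils. The Wnt and Notch pathways had 8 of 41 higher and 1 lower (median 0.08), with the Notch ligand DLL3 (0.95), the glycosyltransferase LFNG (0.98) and WNT11 (0.68).

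Matrix, adhesion and cytoskeleton genes had 41.7% to 63% called per list, with members in both directions. Members with a mean log2 CPM of 7 or more numbered 31 of 46 (actin cytoskeleton), 18 of 47 (collagens and matrix), 10 of 26 (adhesion) and 7 of 24 (proteases). In that class 39.8% of all genes were called. Of 47 collagens and matrix proteins, 11 rose and 16 fell (median 0.03). The chains of collagen VI, COL6A1 and COL6A2 (0.61), COL5A2 (0.43) and the proteoglycan VCAN (0.38) rose, while COL1A1, with 223 and 218 CPM in BRD9 KO, against 321 and 318 CPM in LacZ (-0.54), COL1A2 (-0.25), COL18A1 (-0.35) and MMRN1 (-0.93) fell. Matrix proteases and their inhibitors had 6 of 24 higher and 4 lower (median -0.02; 2 to 4 lower with 1 library left out). PLAU, the urokinase, had 814 and 818 CPM in BRD9 KO, against 577 and 571 CPM in LacZ (0.51, adjusted p = 1.33e-13), and the membrane protease MMP14 rose by 0.91. Of 26 integrins, cadherins and adhesion genes, 12 rose and 4 fell (median 0.22), with the integrin chains ITGAV (0.51) and ITGA3 (0.58) higher and L1CAM (-0.33) and CADM4 (-0.48) lower. The actin cytoskeleton and contractile genes had 14 of 46 higher and 15 lower (median 0.01). FSCN1, which bundles actin, rose (0.51), and EZR (-0.37), FLNA (-0.27) and TAGLN (-0.23) fell.

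Developmental lists were smaller after the filter on low counts. HOX genes and their cofactors had 12 of 39 lower and 1 higher (median -0.16; 5 to 10 lower and 0 to 2 higher with 1 library left out), with HOXA9 (-0.39), HOXC8 (-0.62) and the cofactor MEIS2 (-0.79) lower. Neural development had 7 of 22 higher and 2 lower (median 0.23; 0 to 1 lower with 1 library left out), led by INA. Axon guidance had 7 of 35 higher and 8 lower (median 0.06; 4 to 6 higher and 5 to 7 lower with 1 library left out): the plexin PLXND1 rose (0.56), and the semaphorins SEMA3B (-0.80) and SEMA3D (-0.58) and their co-receptor NRP1 (-0.81) fell. Mesoderm and muscle transcription factors had 5 of 27 higher and 4 lower (median 0.05; 2 to 4 higher and 1 to 3 lower with 1 library left out), and kidney development 2 of 13 higher and 0 lower (median 0.38; 1 to 2 higher with 1 library left out), 15.4% called.

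The marker lists of other cell types bear on the epithelial and adhesion genes above. Of 17 epithelial markers tested, 4 rose and 4 fell (median 0.02; 2 to 4 lower with 1 library left out). KRT8 had 5341 and 5272 CPM in BRD9 KO, against 3656 and 3686 CPM in LacZ (0.53, SE 0.015), and KRT18 rose by 0.53. Both have many processed pseudogenes, and the 2 genes are annotated as overlapping on opposite strands. The library kit does not mark strand, so reads from the overlap cannot be assigned to 1 of them. The summed level of the 36 epithelial markers was 11500 to 11600 CPM of the library total in BRD9 KO and 8810 to 8870 in LacZ, with KRT8 making up 46.2% in BRD9 KO and 41.5% in LacZ, and with 10 markers at 0 in BRD9 KO and 8 in LacZ. Of the other defining markers, EPCAM, CDH1, KRT19 and ESRP1 were at or near 0. KRT7 had 0.366 and 0.428 CPM in BRD9 KO, against 1.12 and 1.33 CPM in LacZ. CLDN4 had 3.39 and 4.77 CPM in BRD9 KO, against 5.88 and 6.49 CPM in LacZ. Of 6 fibroblast markers tested, 1 rose and 4 fell (median -0.15; 0 to 1 higher with 1 library left out), with S100A4 at -0.47. Their summed level was 3280 to 3300 CPM in BRD9 KO and 3600 to 3620 in LacZ, of which VIM made up 54.7% in BRD9 KO and 52.1% in LacZ and the collagens COL1A2 and COL3A1 most of the rest, with 4 of the 11 members at 0 in BRD9 KO and 3 in LacZ, DCN and LUM among them. Neither the 3 endothelial nor the 3 blood cell markers tested had a call (medians -0.22 and 0.12), though 1 blood cell marker was called higher with some library left out; their summed levels were 26.5 to 26.6 CPM in BRD9 KO and 30.0 to 30.2 in LacZ for the endothelial list, 4 members at 0 in BRD9 KO and 5 in LacZ, and 125 to 132 CPM in BRD9 KO and 117 to 119 in LacZ for the blood list, 10 members at 0 in both. The part of other cells in the results was not tested beyond these levels.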

How the data were processed

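RNA was sequenced from 16 libraries (2 each of BRD9 KO and LacZ G401 cells on days 1, 2, 3 and 5), and days 3 and 5 are used here. Libraries were made with a NEBNext Ultra kit that does not keep strand. Further named genes overlap annotated genes on the other strand, such as TGFB1 (HNRNPUL1, CCDC97 and TMEM91), GLA (RPL36A) and SPHK1 (PRPSAP1). Reads from bases shared by such genes cannot be assigned by strand, and how many there were was not examined. The authors aligned reads to hg19 with STAR and quantified genes with RSEM; tool versions are not given in the sources used here. The deposited tables hold RSEM's expected count per gene (35.7% of values above 0 are not whole) and TPM, scaled by the authors for transcript length and library total.

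Expected counts were rounded. Genes were filtered with filterByExpr (minimum count 10, minimum total 15), scaled by TMM and fitted with 1 mean per group over all 16 libraries by edgeR 4.0.16 (glmQLFit, glmQLFTest) in R 4.3.3. Contrasts were BRD9 KO minus LacZ on day 5, on day 3, and the difference of the 2. The common biological coefficient of variation was 0.023. The pipeline was tested on simulated data. Coordinates were matched by gene ID for 14554 of 15027 genes.

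The comparison, the 40 gene lists and the named genes were chosen with earlier results of these data known. Named were BRD9; the 15 highest and 15 lowest changes of 2-fold or more in genes reaching a mean log2 CPM of 1 and with no overlap; the 10 highest and 10 lowest among genes absent on day 3 whose difference between the days was called; the 6 smallest p per direction for that difference; the 5 most abundant 2-fold genes per direction; up to 6 called members per direction and 2 uncalled of each list; up to 5 genes of opposite sign; and genes the study names. Not every gene under the rule is printed, and some results are not reported here. Alternatives were DESeq2 1.42.0, DESeq2's size factors, limma 3.58.1 on log2(TPM + 1), other filters, the libraries of the contrast alone, a replicate block, thinning, tests against a fold and each library left out.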

Additional observations from a re-analysis of the deposited data

Results flagged for a closer look

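The fold change of BRD9 KO over LacZ differed between day 5 and day 3 by a test of the difference itself (a contrast of the 2 effects in edgeR's quasi-likelihood test, Benjamini-Hochberg adjusted p under 0.05) in 143 genes, and each gene below stands out for that reason. Among genes called on day 5 and not on day 3, the difference of the log2 fold changes (day 5 minus day 3) was positive for RP11-73M18.10 (1.95), TGFB1 (0.57), ECM1 (0.49), PDGFB (0.47), FBLIM1 (0.44), GLA (0.37), MDGA1 (0.35), TFPI (0.32), CSTB (0.31), ATP13A2 (0.27), TPM2 (0.20) and FGF2 (0.18). It was negative for RP11-982M15.2 (-1.34), NR2F2 (-0.44), TLN2 (-0.40), SIK1 (-0.40), CALCOCO1 (-0.37), ST3GAL5 (-0.35), PTPRG (-0.34), CREG1 (-0.33) and TLE4 (-0.21). Among genes called higher on both days it was positive for MMP14 (0.58), COL6A1 (0.45), CRYAB (0.35), COL6A2 (0.33), KLF6 (0.32), COL5A2 (0.28), PERP (0.27), ITGAV (0.19), KRT8 (0.18) and KRT18 (0.14). Among genes called lower on both days it was negative for RGS5 (-0.58), NRP1 (-0.45), FGFBP3 (-0.45), CP (-0.43), NUPR1 (-0.42), PSG9 (-0.35), DDIT4 (-0.32), MEIS2 (-0.31), MMRN1 (-0.28), F2RL2 (-0.25), LTBP2 (-0.21), PABPC1 (-0.20) and SLC2A1 (-0.15). Genes called with opposite signs on the days had differences of PFKP (0.15), PKM (0.12), HSPA8 (0.11), SRSF5 (-0.21) and ERRFI1 (-0.19). ANGPT2, called on day 3 and not on day 5, had a difference of -0.34. Of 50 such differences examined singly, 30 stayed called with each of the 8 libraries of days 3 and 5 left out in turn and 20 did not, and 37 of the 50 lost the call in limma on TPM. The replicate block ended this call for MMP14, GLA, ATP13A2, MDGA1, PTPRG and RP11-73M18.10 (adjusted p of up to 0.103), and DESeq2's size factors in edgeR ended it for MMP14, ATP13A2 and MDGA1 (up to 0.0515). DESeq2 gave no adjusted p for the differences of RP11-73M18.10, RP11-982M15.2, TGFB1, PDGFB, GLA, FBLIM1, ECM1 and MDGA1, so it could not call them. The same holds for ST3GAL5, MMP14, NRP1, COL6A2 and CP. No group had more than 2 libraries, so no library could be set against the rest of its group.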

How the results depend on the processing

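With a single day 5 library left out, BRD9 stayed between -1.45 and -1.25, day 5 calls came to 1464 to 1637, 2-fold calls to 102 to 137 and calls over the gene lists to 313 to 344. In each of these fits some of the 152 genes called with a 2-fold change lost their call, even with calls at any fold counted. With a single library of day 3 or day 5 left out, day 3 calls came to 869 to 1055, day 5 calls absent on day 3 to 630 to 1542 and differences between the days to 80 to 104. Groups of 1 library were then assumed to vary like the others. DESeq2 called 1339 genes on day 5, 70 by 2-fold or more, 893 on day 3 and 668 on day 5 and not on day 3. limma-trend on log2(TPM + 1) called 941, 96, 387 and 655, with 23 differences between the days and 208 calls over the gene lists, against 428 with edgeR. It turned the difference of CP to 0.069. Without a filter on low counts, 266 genes passed 2-fold and 317 differed between the days. A test against a 1.2-fold change left 341 genes and one against 2-fold 9. With absence on day 3 defined by an unadjusted p of at least 0.05, 781 of the 1204 remained. DESeq2's size factors, a filter of 1 CPM, the libraries of the contrast alone and thinning to the smallest library moved no count of day 5, 2-fold or day 3 calls by over 1.5 times.

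Replicate numbers were shared by the groups, and the labels do not say whether same-numbered libraries shared anything else. Residuals of same-numbered day 5 libraries correlated at -0.0176 over all genes and 0.179 over the 6298 genes with many counts. Over those genes the correlation was -0.12 on day 2. With 2 libraries per group these values cannot decide whether the libraries were paired, and the main fit treated them as unpaired. The replicate block gave 2206 calls on day 5, 146 by 2-fold or more, 1518 on day 3 and 138 differences between the days, and a BRD9 log2 fold change of -1.35; among the genes named it ended no day 5 call and 6 calls of the difference between the days (MMP14, GLA, ATP13A2, MDGA1, PTPRG and RP11-73M18.10).

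Of 140 genes called on day 5 and named, 132 stayed called with each library left out, 22 lost the call in limma on TPM, and GLTSCR1L, NR4A3, PFKP, PKM and RP11-73M18.10 lost it in DESeq2. For BIRC3 on day 5, DESeq2 gave no adjusted p. Genes below a mean log2 CPM of 1 were called only with changes of 2-fold or more, so absence of a call there is limited by depth. With 2 libraries per group the spread is estimated over all 16 libraries with 8 residual degrees of freedom.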
